A study of Mus musculus with 14 samples.

Results

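The genes described here encode, in the nucleus, the subunits of the mitochondrial respiratory chain and ATP synthase. They were taken by symbol as all names beginning with Ndufa, Ndufb, Ndufc, Ndufs or Ndufv and a number, the names Sdha, Sdhb, Sdhc and Sdhd, and all names beginning with Uqcr, with Cox4 to Cox8 or with Atp5. This gave 84 of 46959 gene entries, after 4 pseudogene names had been dropped. Of these, 35 belong to complex I, 4 to complex II, 8 to complex III, 20 to complex IV and 15 to complex V. Ndufa4 and its relative Ndufa4l2 were placed in complex IV, where the NDUFA4 protein is now assigned, despite their names. The other 2, Atp5s and Atp5sl, share the name only and are not subunits of the enzyme. In all, 82 genes were subunits. Subunits with other names (Ndufab1, Cyc1 and others) fell outside the rule and are given as a list of their own.

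Expression was measured by RNA sequencing in 14 libraries from the Eµ-Myc model, in which a Myc transgene driven by the immunoglobulin heavy chain enhancer makes B-lineage cells malignant. The lines numbered 12, each from 1 Eµ-MycTg/+ mouse, with genotype WT in the labels, so that the transgene is common to every malignant cell here. They were grown untreated for 24 h in a medium containing added L-asparagine. The remaining 2 libraries were lymph node B-cell lymphomas that line 506 formed in wild-type C57BL/6 mice. From day 7 after injection until disease endpoint, the recipient of the first had vehicle (NaCl 0.9%) and that of the second L-asparaginase (ASNase), which breaks down asparagine. Each lymphoma group is 1 library, both derive from 1 line, and both hold cells of the host beside the malignant cells. The age of the mice is not given in the sources used here.

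The respiratory chain sits in the inner mitochondrial membrane. Complex I (NADH dehydrogenase) and complex II (succinate dehydrogenase, which is also an enzyme of the TCA cycle) feed electrons to ubiquinone. Complex III passes them to cytochrome c and complex IV (cytochrome c oxidase) passes them to oxygen. Complexes I, III and IV pump protons, and complex V (ATP synthase) makes ATP as protons flow back. All of complex II and most subunits of the others are encoded in the nucleus, while a few central subunits of complexes I, III, IV and V are encoded by mitochondrial DNA. Several complex IV subunits have a widely expressed form and a second form found in muscle, lung, testis or other tissues.

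Each line gave between 24597230 and 32614751 counts. The lymphomas gave 27715832 with vehicle and 25690935 with ASNase. The 84 genes took 1.11 to 1.47% of a line's counts, 1.06% of the lymphoma's with vehicle and 0.972% of that with ASNase. Levels are given in CPM, each gene's counts as a share of the library's total, scaled between libraries by the TMM method. A count of 3, the limit that a count of 0 allows, corresponds to 0.092 to 0.122 CPM. Intervals and this limit cover counting error only. Of the 84 genes 81 had enough counts to be tested, and Cox7b2, Cox8b and Cox8c did not. B-cell markers (14 genes) summed to 3402 to 9772 CPM in the lines, 7279 in the vehicle and 5448 in the ASNase lymphoma, and edgeR called 0 of them different between lymphomas and lines (2 at an unadjusted p under 0.05, 1 by DESeq2). Of the host cell markers, those of macrophages and fibroblasts summed to far more in both lymphomas than in any line. The endothelial sums, and the T cell sum of the ASNase lymphoma, lay within the range of the lines. In single lines, however, Egfl7 and Pecam1 of the endothelial list reached 310 and 155 CPM, and Lck of the T cell list 38.7 CPM. Some other markers of these lists, such as Kdr and Cd4, were near 0 in every line. Kdr had 19.1 CPM in the vehicle and 12.4 CPM in the ASNase lymphoma, and Cd4 had 13.8 and 4.85 CPM. Macrophage markers summed to 2.84 to 64.6 CPM in the lines, 369 in the vehicle and 758 in the ASNase lymphoma, with 11 of 12 called higher. Fibroblast markers summed to 0 to 6.17, 1180 and 2786 CPM, with 10 of 10 called higher. In both the macrophage and the fibroblast list, 3 markers had no count in any line and could be tested only through the lymphomas. Endothelial markers summed to 36.1 to 477, 326 and 215 CPM, with 6 of 10 higher, and T cell markers to 1.23 to 42.6, 71.3 and 16.6 CPM, with 6 of 10 higher. The part of the host cells in any result between lymphomas and lines was not tested, and in such bulk samples fewer cells of a type and less RNA per cell cannot be told apart.

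In the cultured lines, levels within a complex were uneven. Compared per kilobase of the gene length in the deposited table, the median was 54.3 CPM per kb in complex I, 73.2 in complex II, 109 in complex III, 112 in complex V and 178 for the widely expressed forms of complex IV, against 3.21 over all genes tested. The members highest on this scale were Cox8a, the ubiquitous form of the small subunit COX8, at 477 CPM per kb, the catalytic beta subunit of ATP synthase, Atp5b, at 469 CPM per kb, and the alpha subunit Atp5a1 at 444 CPM per kb. Their order depends on the length used. Per kilobase of the longest annotated protein-coding transcript (GENCODE vM21, an alternative chosen after seeing the data), Atp5b had 1038 CPM per kb, Atp5a1 521 and Cox8a 472. The medians by that length were 82.4 in complex I, 120.1 in complex II, 150.4 in complex III, 234 in complex V and 251 for the widely expressed forms of complex IV, in the same order. In complex I, levels ran from 4.35 CPM per kb for Ndufb2 to 121 for Ndufa2, both accessory subunits. In complex II, they ran from 20.5 for Sdhc to 199.5 for Sdhd, the membrane anchors of the enzyme. The range in complex III was the narrowest, from 58.0 CPM per kb for Uqcrq to 173 for Uqcr11 (by transcript length, from 69.8 for Uqcrq to 276 for Uqcrh). In complex V the lowest was Atp5g1 at 37.4 CPM per kb. Lengths in the table can exceed those of single transcripts, as for Ndufs1, with 8086 bases in the table and 2661 in its annotated transcript, and a longer length lowers the per-kilobase level.

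The main comparison set tumours grown in mice, averaged over both lymphomas, beside the 12 lines in culture. The edgeR quasi-likelihood test, with Benjamini-Hochberg adjustment over 17450 genes at a threshold of 0.05, called 35 of the 81 tested genes lower and 3 higher in the lymphomas. Over all genes, 11.1% were called lower and 13.4% higher. Subunit genes are abundant, and among the 7103 genes with at least 20 CPM in the lines 24% were called lower, against 35 of 74 subunits (47.3%) at that level. The fold change was negative for 72 of 81 genes, against 8796 of all 17450 genes and 5159 of the 7103 genes of at least 20 CPM. Its median was -0.52 on the log2 scale, against -0.01 over all genes and -0.33 over genes of at least 20 CPM. For 37 of the genes both lymphomas lay below every line, which held for 12.5% of all genes tested and for 1817 of the 7103 genes of at least 20 CPM. For 3 genes both lay above every line, as they did for 3323 of all 17450 genes. The spread in this test comes from the lines alone, and only 5 of the lower calls were made without the ASNase lymphoma and 19 without the vehicle lymphoma. Fewer genes of the whole table were called lower in these fits too. The median fold change of the respiratory chain genes was -0.42 without the ASNase lymphoma, against -0.02 over all genes. Without the vehicle lymphoma it was -0.62, against -0.03. With the libraries scaled by total counts 16 of the 81 genes were called lower, and 19 once a trend with gene length had been taken off.

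**Figure D1:**
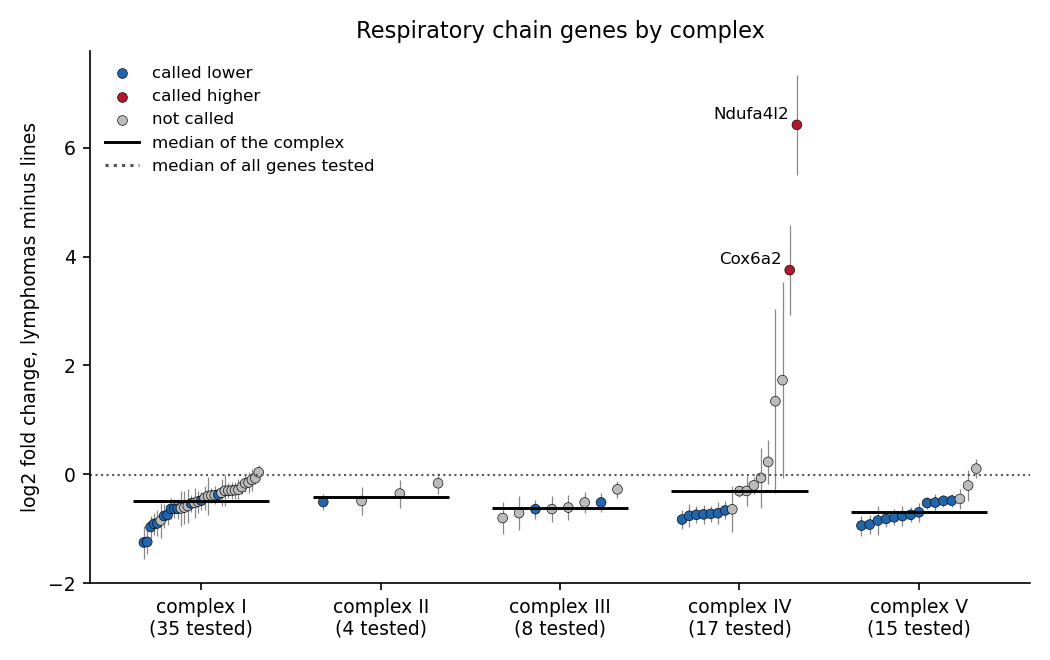
Log2 fold change of each tested gene, mean of both lymphomas minus the 12 lines, by complex; each point is a gene with its SE, blue or red where edgeR called it lower or higher, and lines mark the median of the complex (solid) and of all genes (dotted). Most points of all 5 complexes lie below 0, 12 of 15 in complex V are called lower, and 2 tissue forms of complex IV stand far above 0.

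Complex I, the entry point for electrons from NADH, had 13 of 35 genes called lower and a median log2 fold change of -0.48. The share called lower was 37.1%, against 24% of genes with at least 20 CPM. Summed over the complex, the lines ran from 2289 to 3398 CPM and the lymphomas stood at 2114 (vehicle) and 1800 (ASNase), both below every line. The core subunits, most of which carry the flavin or iron-sulphur clusters or bind ubiquinone, made up 2 of the 13 calls among 7 genes. Their median was -0.38. Accessory subunits made up the other 11 among 28 genes, with a median of -0.51. Ndufs1, the largest core subunit, had 145 to 261 CPM in the lines (median 200.2), 104 in the vehicle and 109 in the ASNase lymphoma. Both lymphomas lay below the lowest line, and Ndufs1 fell by 0.91 on the log2 scale (SE 0.20, edgeR adjusted p = 0.00545).

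Among the accessory subunits of complex I, Ndufc1, a small membrane protein, ranged over 34.9 to 67.0 CPM in the lines (median 49.5), against 23.2 CPM with vehicle and 19.05 CPM with ASNase. It fell by 1.24 on the log2 scale (SE 0.23, edgeR adjusted p = 0.00191), with no overlap between groups. Ndufb6, of the membrane arm, had 39.0 to 68.8 CPM in the lines (median 48.4) and 26.2 CPM in each lymphoma. It also fell without overlap, by 0.97 (SE 0.21, edgeR adjusted p = 0.00498), but 31.3% of its 75-base windows also occur in transcripts of other genes, here Smim27. The lowest fold change of complex I was that of Ndufs5, a subunit of the intermembrane space side, at -1.25 (SE 0.30, edgeR adjusted p = 0.00987), from 28.8 to 77.0 CPM in the lines to 23.6 and 19.3 CPM. At the other end, Ndufa7 was at 51.6 to 72.9 CPM in the lines against 69.9 and 55.5 CPM in the lymphomas, a log2 difference of 0.04 (SE 0.14) that edgeR did not call (adjusted p = 0.88). Ndufv1, the flavin-bearing core subunit that takes electrons from NADH, had 77.7 to 203 CPM in the lines (median 126) against 109 and 98.8 CPM in the lymphomas, within the lines, and was not called (-0.40, edgeR adjusted p = 0.438). Fold changes within complex I thus ran from -1.25 to 0.04, and no test of one subunit against another was made.

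Complex II, which holds no mitochondrially encoded subunit, had 1 of 4 genes called lower, a share near the 24% of genes with at least 20 CPM, and a median of -0.42. Sdha, the flavoprotein that oxidizes succinate, had 125 to 336 CPM in the lines (median 305) and 235 CPM with vehicle and 223 CPM with ASNase, both within the range of the lines (log2 fold change -0.36, edgeR adjusted p = 0.353). Sdhb, the iron-sulphur subunit, had 127 to 198 CPM in the lines (median 158) and 120 and 105 CPM in the lymphomas. Both lymphomas lay below the lowest line, and Sdhb fell by 0.51 (SE 0.15, edgeR adjusted p = 0.0291). The membrane anchor Sdhc had 51.1 to 85.9 CPM in the lines (median 63.4) and 63.4 and 55.9 CPM in the lymphomas. The other anchor, Sdhd, had 182 to 371 CPM in the lines (median 261) and 191 and 175 CPM in the lymphomas. In each anchor at least the vehicle lymphoma lay within the lines, and neither was called (edgeR adjusted p = 0.592 and 0.189).

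Complex III, which carries electrons from ubiquinol to cytochrome c, had 2 of 8 genes called lower, also near the 24% of genes at 20 CPM or more, and a median of -0.63. The called genes were Uqcrc2 and Uqcr11. Uqcrc2, a core structural subunit, had 178 to 318 CPM in the lines (median 244) and 151 CPM with vehicle and 156 CPM with ASNase, outside the range of the lines. It fell by 0.64 (SE 0.17, edgeR adjusted p = 0.0174). Uqcr11, a small accessory subunit, had 83.9 to 138 CPM in the lines (median 109) and 87.0 and 69.0 CPM in the lymphomas, so that the vehicle lymphoma lay within the lines (log2 fold change -0.52, SE 0.17, edgeR adjusted p = 0.0401). The supernumerary subunit Uqcrq had a fold change as large, -0.64, with 71.4 to 150 CPM in the lines against 72.0 and 64.5 CPM, and was not called (SE 0.23, edgeR adjusted p = 0.0607). The Rieske iron-sulphur protein gene Uqcrfs1 had the largest SD of log2 CPM of the complex over the lines, with 64.8 to 205 CPM (median 177), with 113 and 92.5 CPM in the lymphomas, and was not called either (-0.71, SE 0.32, edgeR adjusted p = 0.118). Nor was Uqcrb, an accessory subunit, with the lines at 42.0 to 114 CPM (median 75.2) and the lymphomas at 44.7 and 42.5 CPM, close to the lowest line (-0.80, SE 0.30, edgeR adjusted p = 0.0634).

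In complex IV 7 of 12 widely expressed forms were called lower (58.3%, against 24% of genes with at least 20 CPM). The median of the 12 was -0.69. Cox5a, a subunit of the matrix side, had 167 to 283 CPM in the lines (median 203) and 133 CPM with vehicle and 105 CPM with ASNase. It fell by 0.83 (SE 0.17, edgeR adjusted p = 0.00412), with both lymphomas below every line. Cox6b1, on the intermembrane space side, had 171 to 245 CPM in the lines (median 204) against 139 and 110 CPM, and fell by 0.73 (SE 0.15, edgeR adjusted p = 0.00348). Cox7b, a small membrane-spanning subunit, had 130 to 209 CPM in the lines (median 172) against 107 and 99.2 CPM, and fell by 0.74 (SE 0.15, edgeR adjusted p = 0.00405). The lymphomas lay outside the lines for all 3. Cox4i1, the ubiquitous form of the largest nuclear-encoded subunit, lay within the range of the lines in the vehicle lymphoma (327 CPM against 252 to 428, median 327) and just under it in the ASNase lymphoma (250.3 CPM). Its log2 difference of -0.20 was not called (edgeR adjusted p = 0.398), and it was 0.025 with libraries scaled by total counts. Cox7a2, the ubiquitous COX7A, fell by 0.72 (SE 0.21, edgeR adjusted p = 0.024), from 110 to 191 CPM in the lines to 89.1 and 79.3 CPM. The genes of this complex that varied most over the lines were not called. Cox8a, with the lines at 105 to 403 CPM (median 236), had 196 and 141 CPM in the lymphomas (-0.64, SE 0.42, edgeR adjusted p = 0.298), and Cox7a2l, with the lines at 62.6 to 283 CPM (median 205), had 241 and 223 CPM (0.23, SE 0.40, edgeR adjusted p = 0.731).

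Complex V had the largest share of lower calls, 12 of 15 (80%, against 24% of genes with at least 20 CPM). Its median log2 fold change was -0.70. No test between complexes was made, since genes of a complex are not replicates. Summed over the complex, the lines ran from 5164 to 6845 CPM and the lymphomas stood at 3929 (vehicle) and 3656 (ASNase). In the catalytic F1 part 4 of 5 genes were called lower (median -0.52), and in the membrane-embedded Fo part and the stalk 8 of 10 (median -0.73). Atp5b, the catalytic beta subunit, had 1654 to 2410 CPM in the lines (median 1932) and 1121 CPM with vehicle and 1130 CPM with ASNase, well apart from them. It fell by 0.82 (SE 0.15, edgeR adjusted p = 0.00221). Atp5e, the epsilon subunit, was the F1 gene that was not called, with 74.2 to 196 CPM in the lines (median 98.3) and 111 and 79.6 CPM in the lymphomas (log2 fold change -0.21, adjusted p = 0.653). The largest decrease of the complex was in Atp5o, the subunit that joins F1 to the stalk, from 209 to 342 CPM in the lines (median 254) to 148 and 122 CPM (-0.94, SE 0.18, edgeR adjusted p = 0.00279). Of its windows 22.3% are shared with other genes. Atp5f1, subunit b of the stalk, had 280 to 595 CPM in the lines (median 458) and 249.8 and 244 CPM in the lymphomas, below every line. It fell by 0.85 (SE 0.26, edgeR adjusted p = 0.0299) but was not called without the vehicle (adjusted p = 0.136) or without the ASNase lymphoma (0.151). Atp5l shares 76.0% of its windows, with pseudogenes among others, and its value is uncertain. Without the ASNase lymphoma 2 of the 12 lower calls of this complex were made, Atp5b and Atp5g3.

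The ring of ATP synthase that turns with the proton flow is built of identical copies of subunit c, and 3 genes, Atp5g1, Atp5g2 and Atp5g3, are known to encode the same mature protein behind different import sequences. Their promoters are shown because the genes differed between lymphomas and lines while their product is shared. The sequences are those of RefSeq (GRCm38.p6), 250 bases before to 50 after the annotated start, written 5′ to 3′ on the strand of the gene. Capitals mark matches to an E-box (CACGTG, the same on both strands), the NRF1 core (GCATGCGC, reverse GCGCATGC) and the GC box (GGGCGG, reverse CCGCCC), all searched on both strands.
Atp5g1, chr11:96075582-96075881, minus strand: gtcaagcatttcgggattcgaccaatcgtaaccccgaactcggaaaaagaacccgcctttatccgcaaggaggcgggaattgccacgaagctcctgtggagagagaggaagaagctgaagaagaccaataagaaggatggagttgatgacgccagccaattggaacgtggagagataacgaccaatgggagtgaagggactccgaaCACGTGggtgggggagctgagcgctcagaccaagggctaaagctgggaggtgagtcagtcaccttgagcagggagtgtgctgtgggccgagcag
Atp5g3, chr2:73911277-73911576, minus strand: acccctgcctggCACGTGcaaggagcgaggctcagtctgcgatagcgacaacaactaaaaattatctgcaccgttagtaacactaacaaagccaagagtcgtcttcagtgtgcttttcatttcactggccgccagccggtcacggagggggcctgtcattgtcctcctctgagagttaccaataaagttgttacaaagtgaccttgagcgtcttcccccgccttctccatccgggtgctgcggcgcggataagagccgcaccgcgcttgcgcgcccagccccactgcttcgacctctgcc
Atp5g2, chr15:102670998-102671297, minus strand: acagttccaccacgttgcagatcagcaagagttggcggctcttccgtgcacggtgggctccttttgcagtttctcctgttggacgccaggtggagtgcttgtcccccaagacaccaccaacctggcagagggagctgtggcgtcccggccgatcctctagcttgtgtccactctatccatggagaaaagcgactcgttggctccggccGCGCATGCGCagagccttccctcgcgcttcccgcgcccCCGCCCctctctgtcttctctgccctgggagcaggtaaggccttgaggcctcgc
The E-box of Atp5g1 begins at position -44 from the start and that of Atp5g3 at -238, whereas the window of Atp5g2 holds no E-box. Atp5g2 has the NRF1 core on both strands, in matches that overlap and begin at -42 and -40, and a GC box at -4. In the deposited table Atp5g2 spans positions 102662864 to 102672352 of chromosome 15, so the start used here lies inside the gene. A match describes the letters of the window and shows no binding.

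Over the 69 of 84 genes with a RefSeq promoter (3 matched by an older symbol), an E-box was present in 7 (10.1%), against 8.09% of 27025 genes in the table. The NRF1 core was present in 10 (14.5%, against 3.05%), the ETS core CCGGAAG, reverse CTTCCGG, in 16 (23.2%, against 9.93%), and the YY1 core AAGATGGC, reverse GCCATCTT, in 11 (15.9%, against 3.19%). The GC box was present in 28 (40.6%, against 38.2%) and the TATA box TATAAA, reverse TTTATA, in 7 (10.1%, against 15.7%). NRF1, the ETS factor GABP and YY1 are known regulators of nuclear genes for mitochondrial proteins. These shares are a description of 300-base windows, with no test.

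Atp5g1 had 141 to 221 CPM in the lines (median 186), 115 CPM in the vehicle and 81.8 CPM in the ASNase lymphoma. It fell by 0.92 on the log2 scale (SE 0.17, edgeR adjusted p = 0.00223), although it was not called without the ASNase lymphoma (adjusted p = 0.0809). Atp5g3, with the most CPM of the 3 in every library, had 264 to 391 CPM in the lines (median 326) and 200.3 and 176 CPM in the lymphomas, and fell by 0.79 (SE 0.14, edgeR adjusted p = 0.00198). For both genes the lymphomas lay below every line. Atp5g2 had 107 to 176 CPM in the lines (median 157), 179 CPM in the vehicle and 148 CPM in the ASNase lymphoma. Its vehicle value was above every line and its ASNase value within them (0.10, SE 0.17, edgeR adjusted p = 0.713).

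Ratios within a library do not depend on a factor that scales the whole library. Per kilobase of the table's lengths, Atp5g3 had 1.25 to 2.49 times the level of Atp5g2 in the lines and 0.858 and 0.912 times in the vehicle and ASNase lymphomas. Per kilobase of the annotated transcripts, the ratio was 1.70 to 3.37 in the lines and 1.16 and 1.24 in the lymphomas. On either scale both lymphomas lay below every line, but which of the genes was the higher one in the lymphomas depends on the length used. The change in the ratio between libraries does not. The log2 ratio was lower in the lymphomas by a mean of -0.90 (exact two-sided permutation test over the 91 ways to choose 2 of 14 libraries, p = 0.011, the smallest it can give; 0.0247 adjusted over 9 pairs of related genes compared). By the table's lengths, Atp5g1 had 0.304 to 0.677 times the level of Atp5g2 in the lines and 0.218 and 0.188 times in the lymphomas, a log2 change of -1.03 with the same exact p. The ratio of Atp5g1 to Atp5g3 did not separate the groups (-0.13, exact p = 0.385). Both lymphomas come from 1 line, so this test treats as independent what may be a trait of that line's tumours. In line 506 itself in culture these ratios by the table's lengths were 1.75 for Atp5g3 to Atp5g2 and 0.420 for Atp5g1 to Atp5g2.

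**Figure D2:**
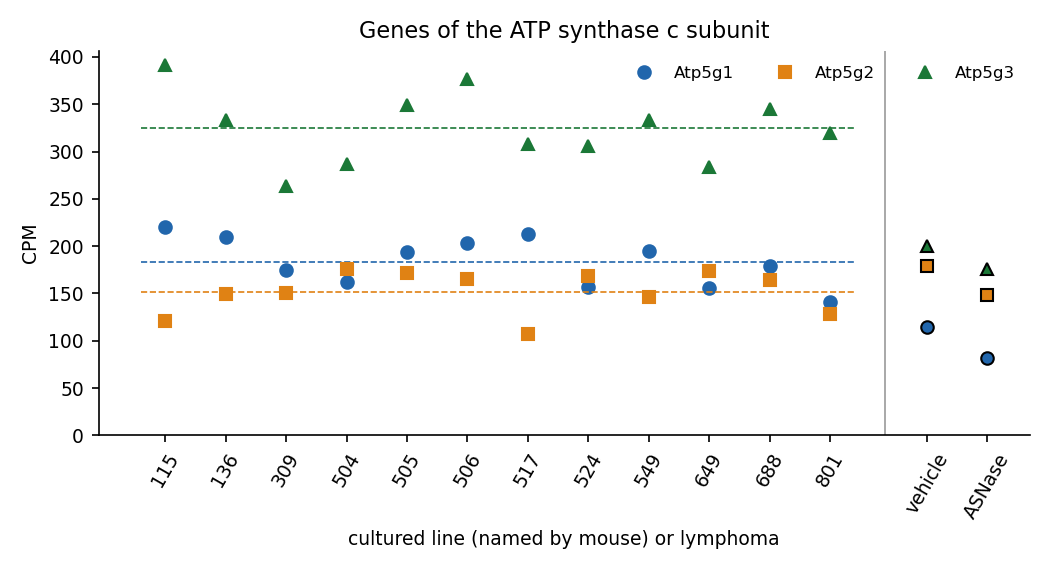
Level in CPM of Atp5g1, Atp5g2 and Atp5g3 in each of the 12 lines and both lymphomas, with a dashed line at the mean of the lines. Atp5g1 and Atp5g3 are lower in both lymphomas than in any line, while Atp5g2 is at 179 and 148 CPM against 107 to 176 CPM in the lines.

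The tissue forms of complex IV were low or absent in culture. Summed over all 8, they made up 0.984 to 4.69 CPM in the lines, 14.5 CPM under vehicle and 16.6 CPM under ASNase. The ubiquitous forms of the complex summed to 1799.9 to 2608 CPM in the lines, 1806 CPM under vehicle and 1479 CPM under ASNase. Cox7b2, the testis form of COX7B, and Cox8c, the testis form of COX8, had no count in any library, which allows at most 3 counts in each. Cox8b, the heart and muscle form of COX8, had 1 count in the ASNase lymphoma and no other.

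Cox6a2, the heart and skeletal muscle form of COX6A, had counts in all 12 lines, 315 in sum, at 0.069 to 2.404 CPM (median 0.566). It had 10.7 CPM (331 counts) in the vehicle and 14.0 CPM (420 counts) in the ASNase lymphoma, above every line in both. Cox6a2 rose by 3.75 on the log2 scale (SE 0.83, edgeR adjusted p = 0.00617), while the ubiquitous Cox6a1 fell by 0.74 (SE 0.17, edgeR adjusted p = 0.00815), from 195 to 323 CPM to 156 and 116 CPM. The log2 ratio of Cox6a2 to Cox6a1 was higher by 5.11 in the lymphomas (exact two-sided permutation p = 0.011, adjusted 0.0247). Even there, Cox6a2 reached 0.0706 and 0.125 times the per-kilobase level of Cox6a1 (0.0574 and 0.102 by transcript length). Markers of striated muscle, the tissue this form is known for, summed to 6.55 to 62.2 CPM in the lines, 16.0 in the vehicle and 11.43 in the ASNase lymphoma. Of 13 such markers 7 could be tested, and edgeR called 0 of them (1 lower at an unadjusted p under 0.05 and 1 lower by DESeq2). Myh1, Myh4, Mb, Myh6 and Actc1 had no count in either lymphoma or in any line, so they do not distinguish the groups. Ckm had 0 and 2 counts in the lymphomas. The part of muscle cells in the level of Cox6a2 was not tested. Line 506 in culture had 0.373 CPM of Cox6a2.

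Ndufa4l2, the low-oxygen-induced relative of Ndufa4, had 6 counts over 4 of the 12 lines (0 to 0.098 CPM), 74 counts (2.38 CPM) in the vehicle and 43 counts (1.44 CPM) in the ASNase lymphoma. It was called higher (edgeR adjusted p = 0.000355), with a fitted log2 fold change of 6.42 that depends on the prior count because the lines are near 0. Ndufa4l2 had enough counts to be tested only through the lymphomas, where it is high. It was also called higher with no filter on low counts. Ndufa4 itself fell by 0.76 (SE 0.21, edgeR adjusted p = 0.0201), from 134 to 260 CPM in the lines to 112 and 97.0 CPM. Ndufa4l2 is known from pericytes, and markers of pericytes and smooth muscle moved in the same direction. They summed to 0.683 to 64.2 CPM in the lines, 192 in the vehicle and 131 in the ASNase lymphoma, with 7 of 10 called higher. The highest of the lines was line 506, where Rgs5 alone made up 63.8 CPM of the sum while Ndufa4l2 had no count. Ndufa4l2 and this sum were higher in the vehicle than in the ASNase lymphoma, but so were the endothelial, T cell and B-cell sums. Those of macrophages and fibroblasts were higher in the ASNase lymphoma. The part of pericytes and smooth muscle in the level of Ndufa4l2 was not tested.

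The other tissue forms were not called. Cox4i2, the lung form of COX4, had 34 counts in 3 lines and 14 counts with vehicle and 6 counts with ASNase (edgeR adjusted p = 0.531). Cox6b2, the testis form of COX6B, had 24 counts in 4 lines and 3 and 9 counts in the lymphomas (edgeR adjusted p = 0.617). Germ cell markers summed to 0.138 to 0.635 CPM in the lines, 1.19 in the vehicle and 1.84 in the ASNase lymphoma, with 1 of 2 tested called higher. Cox7a1, the muscle and brown fat form of COX7A, had 0.323 to 1.55 CPM in the lines (median 0.634) and 0.934 and 0.601 CPM in the lymphomas, inside the range of the lines (edgeR adjusted p = 0.949). Adipocyte markers summed to 0 to 32.55 CPM in the lines, 45.0 in the vehicle and 40.2 in the ASNase lymphoma. The highest of the lines was line 506, where Fabp4 alone had 31.4 CPM, against 37.6 and 32.4 CPM in the lymphomas. Of 5 tested markers 3 were called higher, Cfd, Pparg and Plin1. They had 0, 0 and 2 counts over the lines and could be tested only through the lymphomas. Cidea had no count in either lymphoma. The log2 ratios of Cox4i2 to Cox4i1 (3.58, exact p = 0.033, adjusted 0.0593), of Cox6b2 to Cox6b1 (3.24, exact p = 0.044, adjusted 0.0659), and of Cox7a1 to Cox7a2 (0.77, exact p = 0.253) did not pass after adjustment. That of Cox7a2l, whose product joins complexes III and IV into supercomplexes, to Cox7a2 did not pass either (1.02, exact p = 0.0989).

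**Figure D3:**
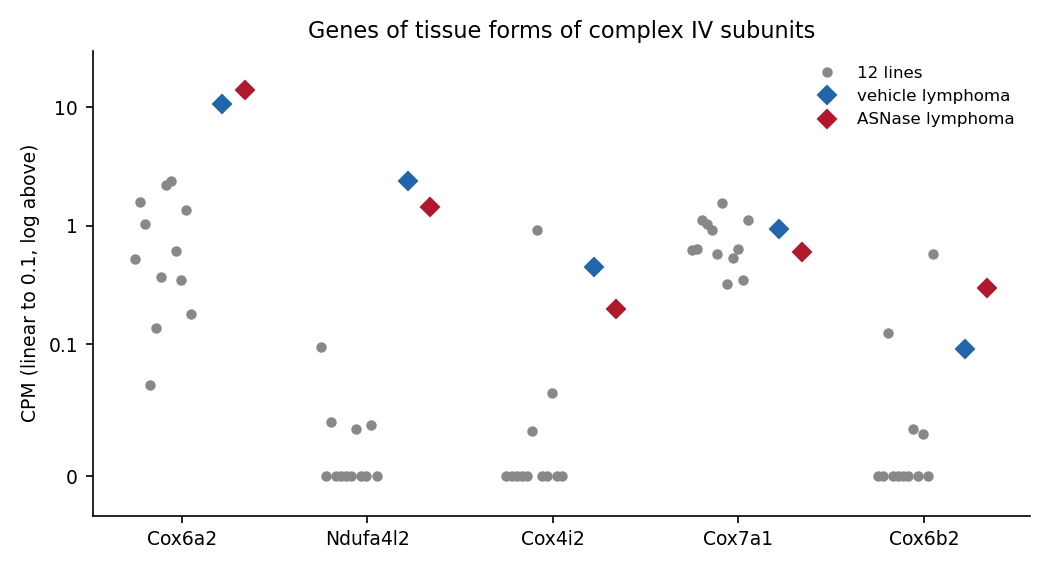
Level in CPM (log axis, linear below 0.1) of 5 genes of tissue forms of complex IV in the 12 lines and both lymphomas, each point a library. Cox6a2 and Ndufa4l2 lie above all lines in both lymphomas, while Cox7a1 lies inside their range.

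Outside the enzymes, Atp5sl, which despite its name encodes a complex I assembly factor (DMAC2), was the 1 gene of the rule with a substantial level that rose. It had 32.64 to 59.6 CPM in the lines (median 41.2), 85.1 CPM in the vehicle and 63.2 CPM in the ASNase lymphoma, both above every line. It rose by 0.71 on the log2 scale (SE 0.20, edgeR adjusted p = 0.0198), and without the vehicle lymphoma it was not called (adjusted p = 0.274). Atp5s, also named for the ATP synthase, had 2.63 to 7.53 CPM in the lines (median 4.31) and 6.12 and 4.71 CPM in the lymphomas (adjusted p = 0.676).

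Among the cultured lines the genes varied less than most. The median SD of log2 CPM over the 12 lines was 0.24, against 0.47 over all genes tested and 0.31 over genes of at least 20 CPM. The lines differed in a common shift. Relative to the mean of the lines, the median of the genes was 0.25 in line 115, 0.13 in line 136 and 0.11 in line 506, and -0.10 in line 504, -0.23 in line 801 and -0.25 in line 649. In line 649 all 5 complexes had a median below 0, from -0.03 in complex II to -0.35 in complex III. The same held in lines 504, 517 and 801, with -0.20 in complex I to -0.39 in complex III in line 801. The steadiest were Ndufs3, a core subunit of complex I (56.4 to 74.5 CPM, SD 0.12), Atp5j of the stalk (142 to 189 CPM, SD 0.12) and Cox6c of complex IV (138 to 178 CPM, SD 0.12).

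Each line was then set against the other 11 by edgeR over 15648 genes, 80 of them from the rule. Over the 12 fits 0.7% of all tests were called. For the respiratory chain 1 gene in 1 line was called, Sdha in line 801, while DESeq2 called 12 genes over 4 lines. Sdha had 125 CPM in line 801 and 262 to 336 CPM in the others, a log2 difference of -1.27 (SE 0.15, edgeR adjusted p = 0.00422). In that line 0.0383% of genes were called lower. Uqcrfs1 was also lowest in line 801, at 64.8 CPM (-1.42, SE 0.24, edgeR adjusted p = 0.058), and DESeq2 called Ndufs4, Ndufs6 and Cox7c in it besides these. Line 506, from which both lymphomas derive, had 0 of the 80 genes called, 0 at an unadjusted p under 0.05 and 0 by DESeq2, with 0% of all genes called by edgeR.

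The genes that varied most over the lines lay on a few chromosomes. Among 75 genes with at least 10 CPM, the 10 on chromosomes 13 and 19 were all within the 12 with the largest SD. The pair outside them was Cox7a2l on chromosome 17, in the first place with 62.6 to 283 CPM (SD 0.62), and Ndufb5 on chromosome 3, with 68.9 to 177 CPM (SD 0.44). On chromosome 13 are Sdha, Uqcrfs1, Uqcrb, Ndufs4, Ndufs6 and Cox7c, from 4 of the 5 complexes. On chromosome 19 are Cox8a, Ndufv1, Ndufs8 and Ndufb8. Line 801 was the lowest line for all 6 genes of chromosome 13, by -1.45 to -0.84 on the log2 scale (median -1.21) relative to each gene's median over the lines. The median of the other 312 genes of that chromosome with at least 10 CPM was lower in this line too, by -0.86. In line 517 the 4 genes of chromosome 19 were lower by -1.16 to -0.46 (median -0.66), and the other 322 genes of the chromosome by -0.76. Cox8a, for example, had 105 CPM in line 517 and 403 CPM in line 506. Under 4 other scalings of the libraries these medians ran from -1.21 to -1.08 and from -0.66 to -0.55.

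**Figure D4:**
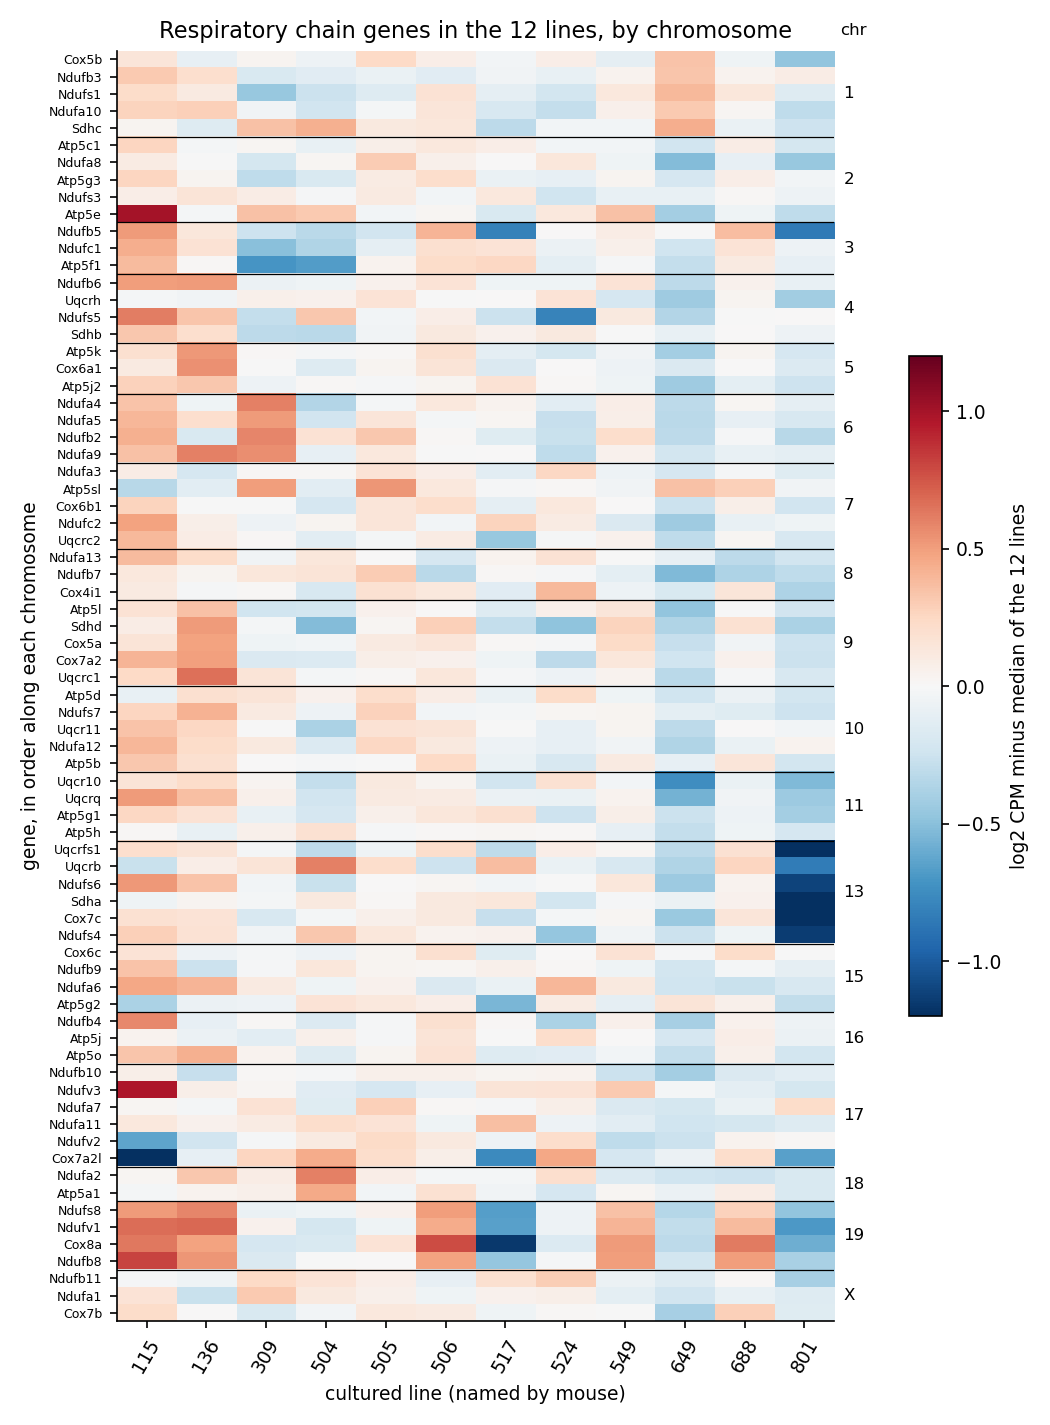
Log2 CPM relative to each gene's median over the 12 lines for 74 of the 75 genes with at least 10 CPM (rows, ordered by chromosome) in each line (columns); the colour scale ends before the most extreme values. The 6 genes of chromosome 13 are low in line 801 and the 4 of chromosome 19 are low in line 517.

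The same was seen across the genome. Of 216 pairs of a line and a chromosome holding any of the 75 genes, 12 had a median of the other genes at least 0.25 log2 units from the median over the lines, a threshold chosen after seeing the data. A further pair, chromosome 12 in line 309 (0.49), held none of them, and the 13 pairs fell in 10 lines and on 8 chromosomes. In all 12 the median of these genes had the sign of the chromosome, and so did 49 of 49 single values. Genes of chromosome 19 were higher by 0.65 in line 115, 0.49 in line 506, 0.46 in line 549 and 0.44 in line 688, where the other genes of the chromosome stood at 0.29, 0.36, 0.31 and 0.30. On chromosome 6 in line 309 the values were 0.57 and 0.50, on chromosome 1 in line 649 they were 0.34 and 0.48, and on chromosome 9 in line 136 they were 0.49 and 0.31. On chromosome 3 the medians were -0.50 and -0.37 in line 309 and -0.36 and -0.45 in line 504. With the median of its chromosome taken off each value, the median SD went from 0.40 to 0.24 on chromosome 13, from 0.44 to 0.21 on chromosome 19 and from 0.21 to 0.20 elsewhere, and Sdha in line 801 was no longer called. The DNA of these lines was not analysed here.

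**Figure D5:**
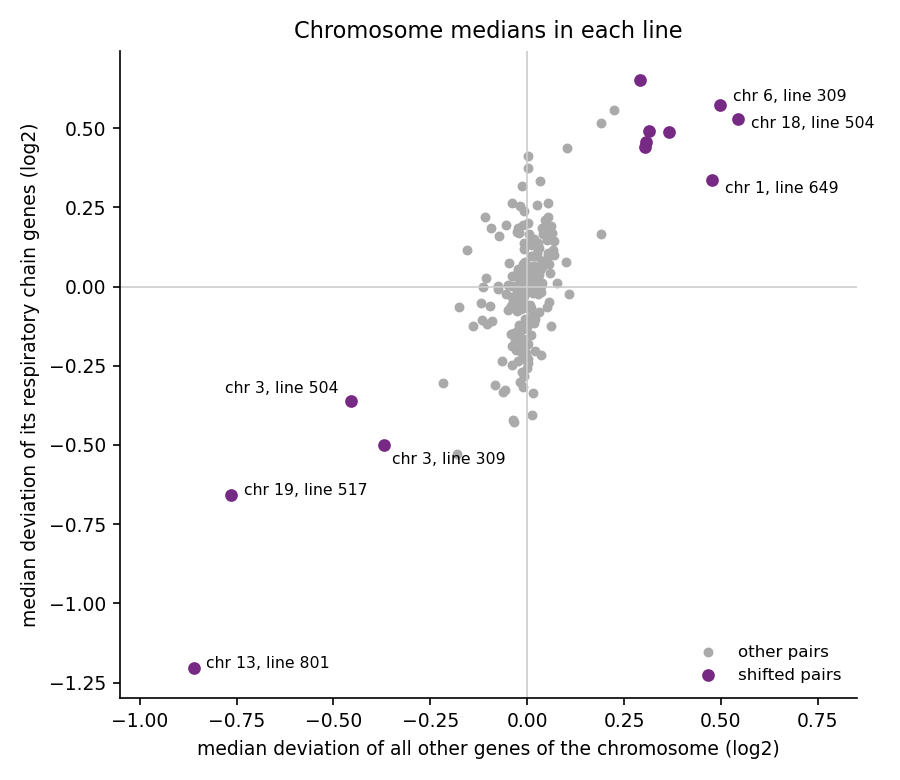
Median log2 deviation of respiratory chain genes against that of the other genes of the same chromosome, for 216 pairs of a chromosome and a line. The lowest point is chromosome 13 in line 801 (-1.21 against -0.86), and the 12 pairs where the other genes lie at least 0.25 from 0 (purple) are all in the quadrants of equal sign.

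A few single values departed from their chromosome by more. Cox7a2l in line 115 stood at -1.71 while its chromosome was at -0.02, and the 32 genes within 5 Mb of it had a median of -0.99. In line 517 Cox7a2l was at -0.76 with its neighbours at 0.02. Atp5e in line 115 stood at 1.00 (196 CPM), with 21 neighbours at 0.56. Ndufb5 was at -0.81 in line 517 and -0.85 in line 801, with neighbours at -0.47 and -0.33. Ndufs5 in line 524 (-0.80), Uqcr10 in line 649 (-0.74) and Ndufv3 in line 115 (0.97) departed where the median of their neighbours lay between 0.02 and 0.09. These were picked as all departures beyond 0.7, and edgeR called none of them (DESeq2 called Ndufv3, Cox7a2l and Atp5e in line 115).

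Since both lymphomas grew from line 506, they were also compared with that line in culture, by size only and with 1 library each. The median over the 81 genes was -0.61 on the log2 scale for the mean of both lymphomas, -0.50 for the vehicle and -0.71 for the ASNase lymphoma, against 0.21 over all genes and -0.35 over genes of at least 20 CPM. Both lymphomas lay below line 506 for 64 of the 81 genes, against 6221 of all 17450 genes and 4368 of the 7103 genes of at least 20 CPM. By complex the medians were -0.44 in complex I, -0.57 in complex II, -0.68 in complex III, -0.51 in complex IV and -0.72 in complex V. The value of complex IV includes the tissue forms, and its widely expressed forms alone had a median of -0.79. Chromosome 19 was high in line 506 and low in its tumours. In the lymphomas nearly all chromosomes lay below the lines' median on this scale, 19 of 20 with vehicle and 20 of 20 with ASNase, and the median over the chromosomes was -0.21 in each. The other genes of that chromosome stood at 0.36 in line 506 and at -0.40 and -0.51 in the vehicle and ASNase lymphomas, and its respiratory chain genes at 0.49, -0.31 and -0.67. Cox8a had 403 CPM in line 506 and 196 and 141 CPM in the lymphomas. Chromosome 3, with Ndufc1, Ndufb5 and Atp5f1, was low in both lymphomas as well, at -0.47 and -0.44 for the other genes and -0.87 and -0.91 for these 3. With the chromosome median taken off, Ndufc1 was still called lower in the lymphomas against the lines (-0.80, edgeR adjusted p = 0.00157), and 23 of the 81 genes were.

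The ASNase and vehicle lymphomas were single libraries, so their difference has no replicate check. The median log2 ratio of ASNase to vehicle was -0.25 over the 81 genes, against -0.04 over all genes and -0.07 over those of at least 20 CPM. In the ASNase lymphoma 72 of the 81 were lower, against 9187 of all 17450 genes and 4055 of the 7103 genes of at least 20 CPM. None of the 81 differed by a log2 ratio of 1 or more at 5 CPM, which 4.61% of all genes did. Among the genes with at least 5 CPM in either lymphoma, the lowest ratios, with exact 95% binomial intervals, were those of the complex I subunits Ndufs7 at 0.658 (0.614 to 0.704), Ndufa13 at 0.678 (0.633 to 0.725), Ndufb10 at 0.678 (0.633 to 0.727) and Ndufa8 at 0.696 (0.645 to 0.750). The highest among the same genes were those of Cox6a2 at 1.32 (1.14 to 1.52), Ndufc2 at 1.17 (1.09 to 1.26), Ndufb4 at 1.08 (0.973 to 1.198) and Ndufs1 at 1.05 (1.00 to 1.10). Ratios over all genes followed gene length. Among genes of at least 20 CPM the median was -0.32 for those under 1 kb, -0.24 from 1 to 2 kb, -0.14 from 2 to 4 kb and 0.06 over 4 kb. Respiratory chain genes, many of them short, had -0.25, -0.31, -0.19 and -0.12 in these classes. With the trend taken off, their median was -0.11. Atp5b, the member with the most CPM, was nearly equal in the lymphomas, with a ratio of 1.01 (0.993 to 1.02).

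Other genes of the pathway were given by lists, whose members were chosen with earlier results known. Of the 13 subunits encoded by mitochondrial DNA, 1 was called lower and none higher, with a median log2 fold change of -0.28. It was mt-Nd2, of complex I, with 596 to 2007 CPM in the lines against 391 and 524 CPM in the lymphomas (-1.33, SE 0.38, edgeR adjusted p = 0.024). The catalytic subunit mt-Co1 had 3202 to 6763 CPM in the lines and 6265 CPM with vehicle and 7526 CPM with ASNase (0.43, adjusted p = 0.257). Genes mt-Co2, mt-Co3, mt-Atp6 and mt-Atp8 averaged 0.620 to 5.49 CPM in the lines, against 5107 CPM for mt-Co1, and their counts are uncertain, since near-identical copies exist in the nuclear genome. Against 24% of genes with at least 20 CPM, 5 of 10 electron carriers and subunits outside the naming rule were called lower (median -0.70). These included cytochrome c, Cycs, from 98.3 to 179.7 CPM in the lines to 55.4 and 55.8 CPM (-1.24, SE 0.23, edgeR adjusted p = 0.00201), and cytochrome c1, Cyc1, from 185 to 278 CPM to 147 and 123 CPM (-0.75, SE 0.16, edgeR adjusted p = 0.00553).

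Counts of assembly factors are to be read against the 11.1% of all genes, and 24% of genes with at least 20 CPM, that were called lower, and no test between lists was made. For complex I, 2 of 14 were lower (median -0.15), namely Ndufaf2 (-1.44, edgeR adjusted p = 0.016) and Ndufaf4 (-0.85, edgeR adjusted p = 0.044). For complex II, 0 of 4 were called by edgeR (median -0.10), 0 at an unadjusted p under 0.05 and 0 by DESeq2. For complex III, 1 of 6 was higher (median -0.25), namely Lyrm7, which stabilizes the Rieske protein, from 1.78 to 3.90 CPM in the lines to 5.99 and 5.35 CPM (1.08, SE 0.29, edgeR adjusted p = 0.0176). For complex IV, 4 of 22 were lower and 1 higher (median -0.35). Higd1a (-1.11, edgeR adjusted p = 0.00158) and Coa7 (-1.003, edgeR adjusted p = 0.00396) had the smallest p among the lower ones. The higher one was the copper chaperone Cox17, from 6.59 to 15.7 CPM in the lines to 29.4 and 22.5 CPM (1.31, SE 0.28, edgeR adjusted p = 0.00552). For ATP synthase, 1 of 4 was lower (median -0.40), the assembly factor Atpaf2 (-0.84, edgeR adjusted p = 0.0266).

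The TCA cycle, which supplies the NADH and succinate that the chain oxidizes, had 7 of 13 genes called lower, with a median of -0.77. This count and the next are also to be read against the 24% of genes with at least 20 CPM. Citrate synthase, Cs, had 329 to 446 CPM in the lines against 229 and 195 CPM in the lymphomas (-0.85, SE 0.12, edgeR adjusted p = 0.000262). Of 76 mitochondrial ribosomal proteins 26 were called lower and none higher (median -0.69), with Mrpl18 (-0.99) and Mrpl39 (-0.80) having the smallest p. Of 14 regulators of mitochondrial biogenesis 3 were called lower, with a median of -0.35. Both values are near those of genes with at least 20 CPM (24% lower, median -0.33). The called genes were Gabpa, the DNA-binding part of GABP (105 to 137 CPM in the lines, 65.1 and 85.8 CPM in the lymphomas; -0.70, edgeR adjusted p = 0.00127), the mitochondrial transcription factor Tfam (-0.49, edgeR adjusted p = 0.0211) and Nrf1 (-0.46, edgeR adjusted p = 0.0282). Of 11 genes of coenzyme Q synthesis none was called lower and 1 higher (median 0.01), Coq3, from 2.27 to 4.88 CPM in the lines to 7.505 and 8.42 CPM (1.30, SE 0.31, edgeR adjusted p = 0.00885).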

How the data were processed

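The authors deposited raw counts, obtained from paired-end reads of stranded mRNA libraries. STAR 2.4.0, featureCounts and Subread 1.5.0-p3 are named in the submitters' processing notes, with the builds mm10 and GRCm38. How strand and multiply matching reads were handled is not given in the sources used here. Counts of genes that overlap others or have near-identical copies are therefore uncertain. Cut into 75-base windows, the annotated transcripts of 50 of the 84 genes had no window in another gene, 20 had over 10% and 1 (Atp5l) over 50%.

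Sample titles identified all 14 columns. Entries of spike-ins and phage, 100 rows with 5 to 534 counts per library, were left out. Samples formed 3 groups (12 lines, 1 vehicle and 1 ASNase lymphoma). Per the labels each line is from another mouse, and p-values measure the spread between lines. Genes were kept by filterByExpr, libraries were scaled by TMM, and edgeR 4.0.16 (R 4.3.3) fitted a quasi-likelihood model with a mean per group, leaving 11 residual degrees of freedom, all from the lines. Because 2 groups held 1 library each, a gene passed the filter where 1 library had enough counts, also if that was a lymphoma. Line fits used the lines only. Adjusted p-values follow Benjamini and Hochberg over all genes tested. Log2 CPM used a prior count of 2, ratios of related genes a count of 0.5 added to each, and binomial intervals a level of 95%. Between single libraries only sizes are given. The ratios of related genes were tested by exact permutation, a test added with the data in view. Levels per kilobase used the lengths of the deposited table, and transcript lengths as an alternative. Deviations by chromosome used genes of at least 10 CPM.

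Members, gene lists and marker lists were chosen with earlier results of these data known. Of 233 listed genes 5 were not found in the table. Named genes are, per complex, the 3 with the smallest p and the 2 with the largest SD over the lines, all genes of the isoform families, all of complex II, those called higher, the 4 largest ratios each way between the lymphomas, the most and least abundant per kilobase, and 2 per list by smallest p. Members of small counts and single examples outside this rule (Ndufs5, Ndufa7, Atp5o, Cox17 and the departures from chromosomes, among others) were chosen after their values were seen. The single values of 2 genes are not reported here, though both are in the counts and medians. The edgeR fits were tested on simulated counts. Alternatives were other scalings, no filter, DESeq2 1.42.0, lowess trends with gene length (base R, span 0.3), other prior counts and leaving out libraries. Taking off each chromosome's median and the background of genes at 20 CPM were chosen after seeing the data. Motifs and plots used Python 3.11.15, pandas 2.3.3, scipy 1.17.1 and matplotlib 3.10.9.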

Additional observations from a re-analysis of the deposited data

How the results depend on the processing

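The 35 lower calls between lymphomas and lines numbered 31 with RLE size factors, 33 with no filter on low counts, 40 with DESeq2, 16 with total counts, 14 with library sizes from genes the lines express, 19 with the gene length trend taken off and 23 with the chromosome median taken off (chosen after seeing the data). Leaving out the vehicle lymphoma, the ASNase lymphoma or line 506 gave 5 to 33. Ndufb6, Ndufc1, Atp5b and Atp5g3 were called lower in all of these. The 3 higher calls remained in all but 1, where Atp5sl was lost without the vehicle lymphoma. These scalings moved the median of all genes to 0.22 with total counts, 0.23 with line-expressed genes, 0.12 with the length trend and 0.21 with the chromosome median. The median fold change of the genes was then -0.29, -0.28, -0.29 and -0.24, and relative to all genes it ran from -0.58 to -0.40 over all settings. All-gene calls went from 1929 lower and 2340 higher to 943 and 2942, 885 and 3021, 1350 and 2704, 1207 and 3107 under these 4, and to 2328 and 2047 with DESeq2. Lower calls in complex V, 12 as reported, ran from 2 without the ASNase lymphoma and 6 with line-expressed genes to 12. Against line 506 the median of -0.61 was -0.30 with total counts, -0.28 with line-expressed genes, -0.33 with the length trend and -0.33 with the chromosome median. The 1 call over the lines in turn became 2 with the length trend, 2 with no filter, 12 with DESeq2 and 0 with the chromosome median. The causes were not tested. The median SD over the lines was 0.22 to 0.25 with each line left out. Small differences changed sign, none of them called. With total counts they were Sdhc 0.062, Cox4i1 0.025, Cox7a1 0.14 and Atp5e 0.019, and with line-expressed genes Sdhc 0.080, Cox4i1 0.042, Cox7a1 0.15 and Atp5e 0.036. With the length trend they were Cox4i1 0.042, Cox7a1 0.10 and Atp5e 0.021, and with the chromosome median Ndufv1 0.090 and Sdhc 0.055. Over the fits without the vehicle or without the ASNase lymphoma, Cox7a1 ran from -0.38 to 0.25, Atp5e from -0.45 to 0.031 and Atp5g2 from -0.032 to 0.24. Ratios of Cox4i2 and Cox6b2 to their ubiquitous forms had an adjusted exact p of 0.0495 with the length trend. No paired analysis was possible because 506 is the 1 line number that recurs across groups, and each lymphoma group is 1 library. Depth limits only the tissue forms near 0.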
